A study of Mus musculus with 6 samples.

Results

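The proteoglycans described here are 10 genes, chosen by symbol from the deposited read counts: decorin (Dcn), biglycan (Bgn), asporin (Aspn), lumican (Lum), fibromodulin (Fmod), Prelp, osteoglycin (Ogn), versican (Vcan), perlecan (Hspg2) and glypican-1 (Gpc1). All 10 were found among the 23420 genes of the table. Their transcripts were measured by polyadenylated RNA sequencing in bone marrow-derived mesenchymal stromal cells (MSCs) of female C57BL/6 mice. The 3 libraries labelled Ctl MSC came from passage 5 MSCs transduced with the empty AP2 retroviral backbone, which carries eGFP, and the 3 labelled MSC-TPr from cells that received the same retrovirus carrying the thymoproteasome (TPr) subunits β1i, β2i and β5t. Both groups were therefore expanded in culture, transduced and grown in the same medium. The sources used here do not state whether the libraries of a group came from separate mice or cultures, so the p-values measure only the spread between these libraries, which may be technical.

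Proteoglycans are core proteins that carry long sulfated sugar chains, the glycosaminoglycans. Only transcripts were measured here, so whether the product of each listed gene carried such chains is not known from these data. The small leucine-rich proteoglycans sit on collagen fibrils, set their diameter and spacing, and hold growth factors of the TGF-beta family in the matrix. Versican binds hyaluronan in loose, hydrated matrix, perlecan is a heparan sulfate proteoglycan of basement membranes, and glypicans are tethered to the cell surface and present growth factors to receptors. Stromal cells are a main source of these proteins in connective tissue and bone marrow.

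Each library held from 16158756 to 22158887 reads assigned to genes, and 3 reads, taken as the detection floor, corresponded to 0.139 to 0.181 counts per 1000000 reads on genes (CPM), a limit that covers counting error only. The libraries numbered 1 stood apart from the others of their label. Counts of Ctl MSC 1 differed from those of Ctl MSC 2 and 3 by a chi-square of 171 to 183 per gene, against 4.97 between Ctl MSC 2 and 3, and MSC-TPr 1 differed from MSC-TPr 2 and 3 by 160 and 200, against 52.3 between those. The summed level of 10 cell division genes, led by Top2a, Mki67 and Cdk1, was 1486, 149 and 143 CPM for Ctl MSC libraries 1 to 3 and 144, 1306 and 1364 CPM for MSC-TPr libraries 1 to 3. The transduced genes did not separate the labels either, as Psmb9 (10 to 56 reads) and Psmb10 each overlapped between the groups. Psmb11 overlapped too, but had 2, 4 and 2 reads for Ctl MSC libraries 1 to 3 and 4, 6 and 1 for MSC-TPr libraries 1 to 3. These counts are about the floor and cannot separate the labels. In the cell division genes and in Psmb10, Ctl MSC 1 lay with MSC-TPr 2 and 3, and MSC-TPr 1 with Ctl MSC 2 and 3. Nt5e (CD73), chosen after its values were seen, followed the labels, with 11.4, 20.2 and 17.4 CPM for Ctl MSC libraries 1 to 3 and 2.66, 4.20 and 5.24 CPM for MSC-TPr libraries 1 to 3. Over all 6 libraries DESeq2 called it lower (adjusted p = 2.04e-05), but edgeR, the main test, did not call it (adjusted p = 0.079). Whether the labels of both libraries numbered 1 were exchanged was not tested, and an exchange would change the meaning of every difference over 6 libraries. Each direction is one between libraries as labelled. For the members tested it is given with all 6 libraries and without both libraries numbered 1. For other genes it is often given only without both, and several of those changes were smaller over all 6 libraries. Without both, label and cell division cannot be told apart, as the cell division genes were low in Ctl MSC 2 and 3 and high in MSC-TPr 2 and 3. The part of cell division in the differences was not tested. MSC surface markers were present in every library, led by Itgb1, Cd44 and Ly6a, with a summed level of 1557 to 3171 CPM, except Thy1 (CD90), which had 1 read in all. Of the haematopoietic markers, Laptm5 and Cd52 had 0 reads and Ptprc (CD45) had 2, and the 9 found in the table summed to 1.99 to 14.3 CPM. Cd68 ranged from 0.789 to 14.2 CPM and Csf1r from 0 to 0.835 CPM, and Csf1r was above Cd68 in MSC-TPr 3, the library with the lowest sum. The 8 endothelial markers summed to 1.33 to 24.9 CPM, with Cldn5 at 0 and the highest value in MSC-TPr 1, where Vwf reached 21.4 CPM and Kdr 2.99 CPM.

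The question asked of the data was whether the proteoglycan transcripts differed between MSC-TPr and Ctl MSCs. Over all 6 libraries, 0 of the 9 members that passed the filter on low counts were called, where a call required an adjusted p under 0.05 (edgeR's quasi-likelihood test, adjusted by Benjamini-Hochberg across all genes tested) and a log2 change of 0.5 or more either way. Of all 11974 genes tested, 0.426% were called, 0.0251% as higher and 0.401% as lower in MSC-TPr. DESeq2 also called 0 members, against 5.28% of all genes. An unadjusted p under 0.05 was reached by 1 member, osteoglycin, against 15.0% of all genes, and osteoglycin was also the 1 member of 9 whose groups did not overlap, against 22.6% of all genes. Of all genes, 12.1% lay lower in every MSC-TPr library and 10.6% higher. Without both libraries numbered 1, edgeR called 4 of the 9 members tested (Bgn, Fmod, Aspn and Gpc1), all higher in MSC-TPr, where it called 40.0% of all genes with 20.6% as higher and 19.4% as lower. Fmod passed the filter there only through MSC-TPr 2 and 3, the group where it was high, so its call was favoured by the filter. Among the 8 members with a library at the filter level (0.551 CPM) in both groups, 3 were called (Bgn, Aspn and Gpc1), against 38.3% of the 11647 such genes, 20.3% as higher and 18.0% as lower. Calls in either direction thus took a share of these members near that of all such genes. DESeq2 called 5 members over these 4 libraries, adding Prelp, against 35.2% of all genes. The median log2 fold change of the 9 members was −0.118 over 6 libraries, against 0.012 over all genes tested, and that of the 8 members just named was 0.558 over 4, against 0.010 over all such genes. Because the RNA came from bulk cultures, fewer cells of a type and less RNA per cell cannot be told apart.

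**Figure D1:**
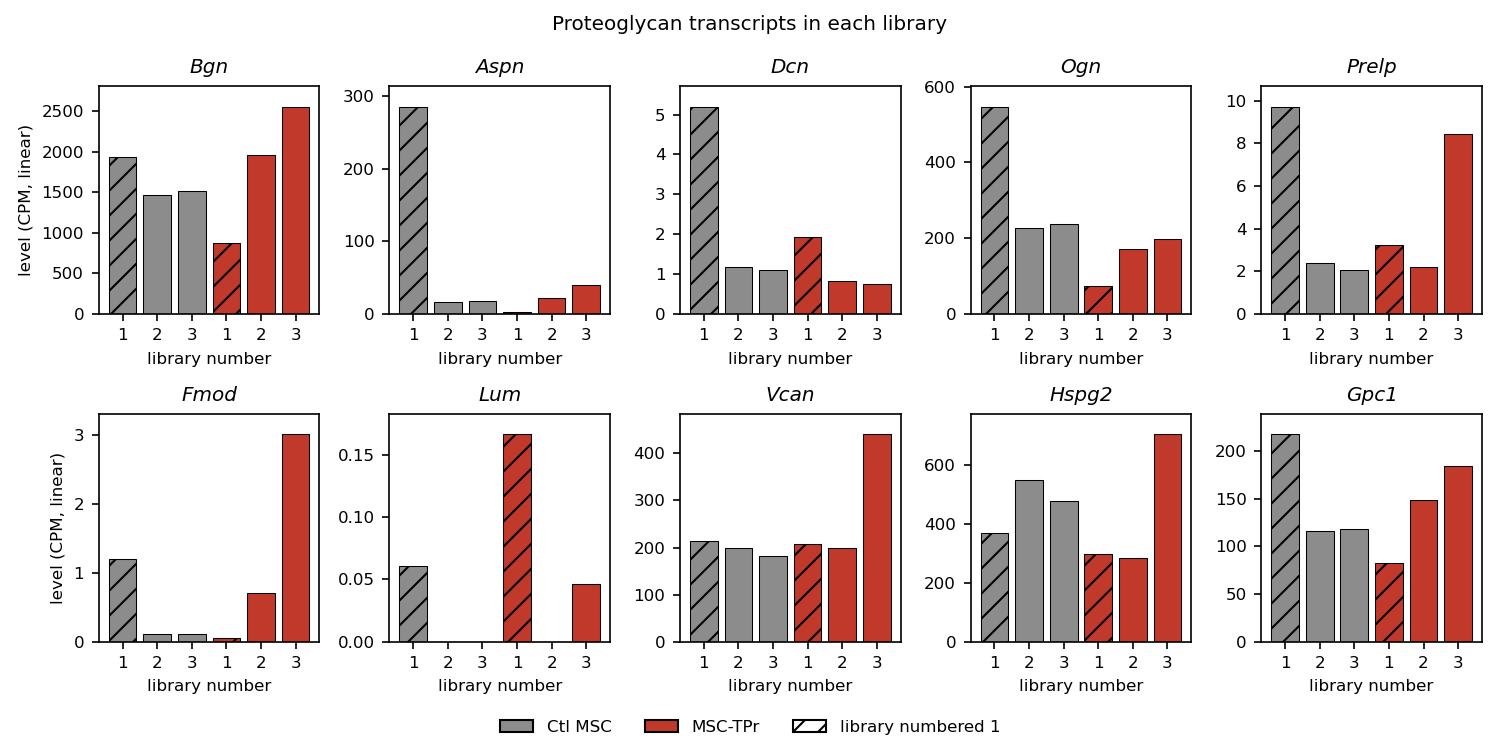
Level of each proteoglycan transcript in CPM (linear axis from 0, its own scale in each panel) in the 3 Ctl MSC libraries (grey) and the 3 MSC-TPr libraries (red), with hatched bars for the libraries numbered 1. Asporin and decorin stand highest in Ctl MSC 1, biglycan lies between 875 and 2552 CPM in every library, and lumican has at most 3 reads in any library.

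Scaled for length, the transcripts covered a wide range. Biglycan had the highest mean level over the 6 libraries, 281 CPM per kb of merged exons, followed by osteoglycin at 94.4 CPM per kb. Perlecan (31.2), glypican-1 (28.1), asporin (27.3) and versican (16.6 CPM per kb) came next, and Prelp (1.29), decorin (0.314), fibromodulin (0.262) and lumican (0.0186 CPM per kb) were low. The order of biglycan over osteoglycin and of osteoglycin over perlecan held in 6 of 6 libraries, as did that of versican over Prelp and of Prelp over decorin. Perlecan lay above glypican-1 in 4 of 6 libraries and glypican-1 above asporin in 5 of 6. Asporin exceeded versican per kb in 1 of 6 libraries, Ctl MSC 1, so its higher mean rests on that library. Decorin was above fibromodulin in 4 of 6 libraries and fibromodulin above lumican in 5 of 6. The neighbours that changed places between libraries are not separated by these data.

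**Figure D2:**
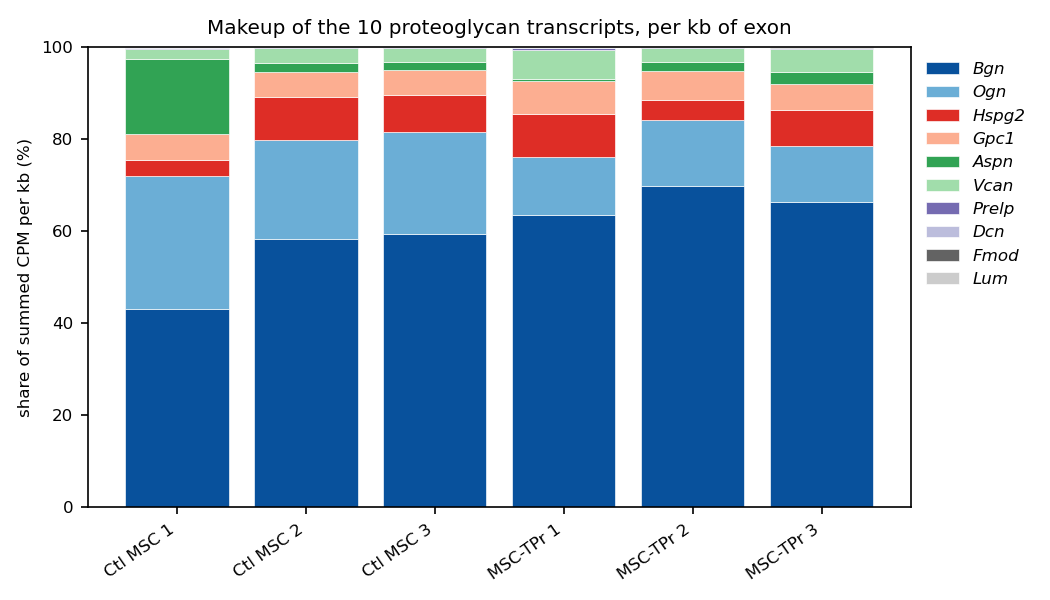
Share of each gene, in percent, in the summed CPM per kb of the 10 proteoglycan genes in each library (stacked bars from 0 to 100%). Biglycan makes up 43.0% in Ctl MSC 1 and 58.3% to 69.7% in the other libraries, and asporin 16.4% in Ctl MSC 1 against 0.563% to 2.71% elsewhere.

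Biglycan, which carries chondroitin or dermatan sulfate chains and binds collagen, was the dominant member and ranked 39 of all genes by mean CPM. The gene lies on the X chromosome, from 73483602 to 73495933 on the plus strand (mm10 coordinates, GENCODE M21). Its level was 1937, 1458 and 1514 CPM for Ctl MSC libraries 1 to 3 and 875, 1956 and 2552 CPM for MSC-TPr libraries 1 to 3. MSC-TPr 2 and 3 were above every Ctl MSC library, and MSC-TPr 1 was below every one, so that the groups overlapped. Means were 1636 ± 262 CPM for Ctl MSC and 1795 ± 850.3 CPM for MSC-TPr (SD, n = 3 each). The log2 fold change was 0.13 (SE 0.389, edgeR adjusted p = 0.901). In the 4 libraries not numbered 1 the levels were 1486 ± 39.3 and 2254 ± 421 CPM (SD, n = 2 each), and biglycan rose by 0.60 on the log2 scale (SE 0.166, edgeR adjusted p = 0.0287). Between the libraries numbered 1 alone it differed in the other direction, with a log2 ratio of −1.15 for MSC-TPr 1 over Ctl MSC 1.

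Asporin, a close relative of biglycan whose core protein carries a run of aspartate residues and binds TGF-beta, varied most. It measured 285, 16.9 and 17.4 CPM for Ctl MSC libraries 1 to 3 and 2.99, 22.4 and 40.2 CPM for MSC-TPr libraries 1 to 3. The highest library exceeded the lowest 95.5-fold, and these were the libraries numbered 1. On the log2 scale its standard deviation over the 6 libraries was 2.13, at the 99.0th percentile of all genes tested, whose median was 0.367. The log2 fold change over all 6 libraries was −2.28 (SE 1.36, edgeR adjusted p = 0.487). Over the 4 libraries not numbered 1 its sign turned, and asporin rose by 0.88 (SE 0.273, edgeR adjusted p = 0.0421), from 17.2 ± 0.314 to 31.3 ± 12.6 CPM (SD, n = 2 each). Leaving out Ctl MSC 1 alone gave 0.35 (edgeR adjusted p = 0.826). The exons of asporin share 7 bases with Cenpp on the opposite strand.

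Decorin, the best known collagen-fibril proteoglycan and commonly abundant in fibroblasts, was scarce in every library. It had 86, 22 and 20 reads for Ctl MSC libraries 1 to 3 and 35, 14 and 16 reads for MSC-TPr libraries 1 to 3, or 0.742 to 5.20 CPM. Ctl MSC 1 was highest and MSC-TPr 1 second, and the remaining libraries lay between 0.742 and 1.175 CPM. The log2 fold change was −1.085 (SE 0.747, edgeR adjusted p = 0.542) over all 6 libraries and −0.54 (SE 0.316, edgeR adjusted p = 0.208) without both libraries numbered 1, and without Ctl MSC 1 alone it was 0.036.

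Lumican and fibromodulin, which carry keratan sulfate and bind collagen at a shared site, were near the limit of detection. Lumican had 1, 0 and 0 reads for Ctl MSC libraries 1 to 3 and 3, 0 and 1 reads for MSC-TPr libraries 1 to 3. These counts are at or under the floor of 3 reads, so a difference was not detectable at this depth, and lumican did not pass the filter. Fibromodulin had 20, 2 and 2 reads for Ctl MSC libraries 1 to 3 and 1, 12 and 65 reads for MSC-TPr libraries 1 to 3. Its log2 fold change over all 6 libraries was 1.44 (SE 1.35, edgeR adjusted p = 0.665). MSC-TPr 2 and 3 held 77 reads against 4 in Ctl MSC 2 and 3, and 65 of the 77 were in MSC-TPr 3. Its calls over these 4 libraries, counted above, are not used as a result. The gene passed the filter there only through MSC-TPr 2 and 3. Its counts in Ctl MSC 2 and 3 lie under the floor of 3 reads. In the libraries numbered 1 the order was the opposite, with 20 reads in Ctl MSC 1 and 1 in MSC-TPr 1.

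Prelp, thought to anchor basement membranes to collagen, was low as well. It measured 9.73, 2.40 and 2.04 CPM for Ctl MSC libraries 1 to 3 and 3.21, 2.19 and 8.44 CPM for MSC-TPr libraries 1 to 3. Ctl MSC 1 and MSC-TPr 3 were high and the other 4 libraries lay within 2.04 to 3.21 CPM. Over all 6 libraries its log2 fold change was −0.026 (SE 0.766, edgeR adjusted p = 0.991), and without both libraries numbered 1 it was 1.28 (SE 0.601, edgeR adjusted p = 0.127). Prelp shares 350 exonic bases with the antisense gene Gm15851, and the sources used here do not say whether reads were counted by strand, so reads of the pair may not be told apart.

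Osteoglycin, a small proteoglycan first isolated from bone, was the only member whose groups did not overlap over all 6 libraries, against 22.6% of all genes. It reached 547, 227 and 237 CPM for Ctl MSC libraries 1 to 3 and 72.9, 171 and 198 CPM for MSC-TPr libraries 1 to 3. Every MSC-TPr library lay below every Ctl MSC library, although MSC-TPr 3 and Ctl MSC 2 were close. Means were 337 ± 182 and 147 ± 65.7 CPM (SD, n = 3 each). Its log2 fold change of −1.20 (SE 0.491) had an edgeR unadjusted p of 0.0475 and an adjusted p of 0.325 over all genes. Leaving out both libraries numbered 1, the means were 232 ± 7.25 and 184 ± 18.7 CPM (SD, n = 2 each) and the log2 fold change shrank to −0.33 (SE 0.125, edgeR adjusted p = 0.0737). The libraries numbered 1 differed by a log2 ratio of −2.91, with no replicate. Osteoglycin kept a negative log2 fold change with each library left out in turn, from −1.46 to −0.66 (edgeR adjusted p from 0.319 to 0.628).

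**Figure D3:**
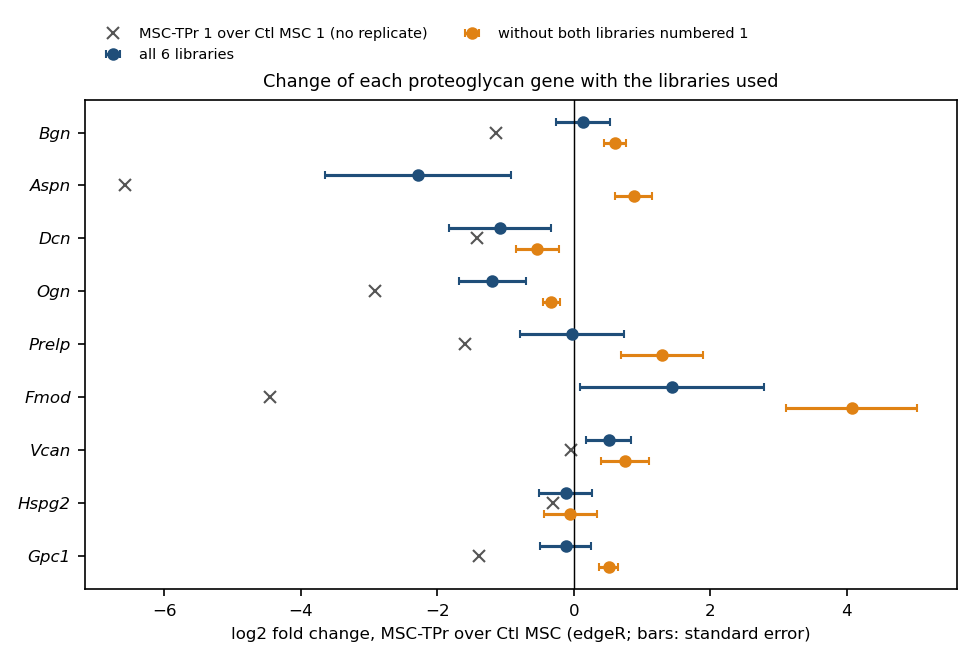
Log2 fold change of MSC-TPr over Ctl MSC for the 9 members tested, with all 6 libraries (blue) and without both libraries numbered 1 (orange), with bars of 1 standard error from edgeR, and the log2 ratio of MSC-TPr 1 over Ctl MSC 1 (crosses). The crosses lie below 0 for all 9, while asporin, Prelp and glypican-1 change sign between the fits and osteoglycin stays below 0 in both. Fibromodulin entered the fit of 4 libraries only through MSC-TPr 2 and 3, and its point there supports no call.

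Versican, the large chondroitin sulfate proteoglycan, was steady in 5 of the 6 libraries. It measured 213, 199.6 and 182 CPM for Ctl MSC libraries 1 to 3 and 207, 199.4 and 440.3 CPM for MSC-TPr libraries 1 to 3, of which the last was the only high one. The log2 fold change was 0.51 (SE 0.330, edgeR adjusted p = 0.520) over all 6 libraries and 0.75 (SE 0.346, edgeR adjusted p = 0.123) without both libraries numbered 1, and it dropped to 0.042 without MSC-TPr 3. Versican lies on chromosome 13 from 89655312 to 89742509, and is the member whose log2 level varied least (SD 0.47).

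Perlecan, encoded on chromosome 4 from 137468769 to 137570630, varied within both labels. Its level was 368, 549 and 476 CPM for Ctl MSC libraries 1 to 3 and 298, 283 and 703 CPM for MSC-TPr libraries 1 to 3. MSC-TPr 3 held the highest level and MSC-TPr 2 the lowest, a 2.48-fold difference within one label. The log2 fold change was −0.12 (SE 0.391, edgeR adjusted p = 0.912) with all libraries and −0.053 (SE 0.392, edgeR adjusted p = 0.920) without both libraries numbered 1. The standard errors allow changes of either sign.

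Glypican-1, the surface heparan sulfate proteoglycan of the set, measured 218, 116 and 118 CPM for Ctl MSC libraries 1 to 3 and 82.7, 149 and 185 CPM for MSC-TPr libraries 1 to 3. Ctl MSC 1 was the highest and MSC-TPr 1 the lowest. Over all 6 libraries its log2 fold change was −0.12 (SE 0.374, edgeR adjusted p = 0.908). Over the 4 libraries not numbered 1 it rose by 0.51 (SE 0.139, edgeR adjusted p = 0.0274), from 117 ± 1.67 to 167 ± 25.1 CPM (SD, n = 2 each). The gene lies on chromosome 1 from 92831645 to 92860779, and 977 exonic bases overlap Ankmy1 on the opposite strand, so with the strand setting not given its reads and its call are uncertain.

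The same libraries recurred as the highest or the lowest among the members. Ctl MSC 1 was the highest library for 5 of the 9 members tested (Dcn, Ogn, Aspn, Prelp and Gpc1) and MSC-TPr 3 for the other 4. The share of all genes with each library as highest or lowest is not given here. These counts therefore cannot be read as particular to the members. MSC-TPr 1 was the lowest library for Bgn, Ogn, Aspn and Gpc1, while the lowest counts of Fmod (1, 2 and 2 reads) lie under the floor and have no order. MSC-TPr 1 was below Ctl MSC 1 for 9 of the 9 members, against 50.0% of the 11937 genes tested that were above 0 in both. Versican was nearly equal, with a log2 ratio of −0.045, and its sign rests on the scaling (3736 reads in MSC-TPr 1, 3531 in Ctl MSC 1). As the library pair numbered 1 has no replicate, this is a description of those libraries.

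Profiles were compared as the root mean square difference of log2 CPM over the 6 libraries, each gene centred on its own mean. Among the members, biglycan and glypican-1 were most alike, with a difference of 0.219, and versican and perlecan followed at 0.39. Decorin and fibromodulin were farthest apart (2.16). Across 9086 other genes with a mean log2 CPM of at least 3, the closest to biglycan were Lpar1 (0.062), a lysophosphatidic acid receptor, Tbc1d8b (0.067) and Qsox1 (0.095), a secreted sulfhydryl oxidase. The genes closest to perlecan were Esr1 (0.098), the estrogen receptor, Gse1 (0.131) and Notch2 (0.137). Osteoglycin was followed most closely by Cntln (0.143), Pparg (0.177), the adipogenic nuclear receptor, and B3galnt1 (0.183).

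Genes of this family lie in clusters. On chromosome 13, Ecm2, Aspn, Omd and Ogn occupy 119.7 kb in this order on the plus strand, from 49504810 to 49624501, with Aspn at 49544443 to 49567565 and Ogn at 49608046 to 49624501. Omd, which encodes the bone proteoglycan osteomodulin, had 67.5, 13.2 and 10.9 CPM for Ctl MSC libraries 1 to 3 and 5.15, 25.9 and 14.8 CPM for MSC-TPr libraries 1 to 3. Ecm2 had 2.18, 0.694 and 1.38 CPM and 0.166, 0.237 and 0.928 CPM in the same order. All 4 genes of the cluster were highest in Ctl MSC 1, and Aspn, Omd and Ogn were lowest in MSC-TPr 1, while the lowest Ecm2 counts (3 and 4 reads) were at about the floor. Glypican-1, on chromosome 1, was likewise highest in Ctl MSC 1 and lowest in MSC-TPr 1, so these extremes are not particular to the cluster. Mean levels of the 4 genes of the cluster differed widely. On chromosome 10, Dcn (97479609 to 97518143), Lum (97565128 to 97572703), Kera and Epyc span 202.8 kb, and held 193, 5, 1 and 0 reads in all 6 libraries together. Optc, Prelp (133910304 to 133921414) and Fmod (134037254 to 134048277) lie within 151.1 kb of chromosome 1, where Optc had 37 reads in all and was highest in Ctl MSC 3.

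**Figure D4:**
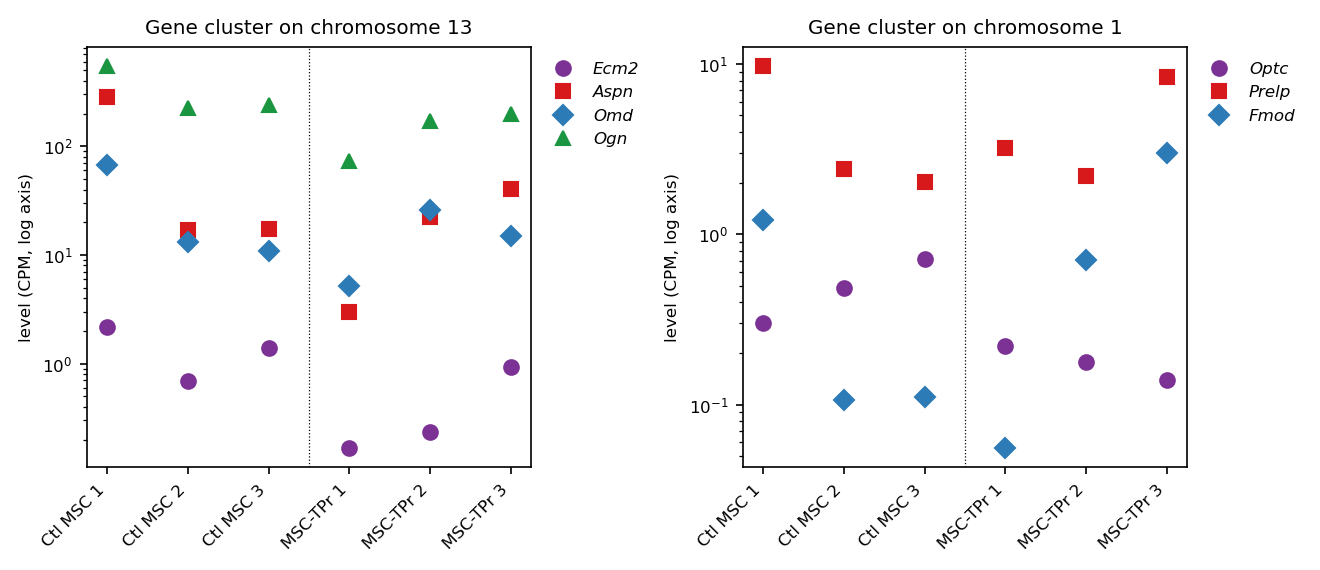
Level in CPM (log axis) of the genes of the family cluster on chromosome 13 (left) and on chromosome 1 (right) in each library, with the Ctl MSC libraries left of the dotted line. Ogn, Aspn, Omd and Ecm2 are all highest in Ctl MSC 1, and the first 3 are lowest in MSC-TPr 1, while Optc, Prelp and Fmod each have a different highest library. Points of 4 reads or fewer are near the floor and have no order.

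The sequences before the start of asporin and osteoglycin are shown because these neighbours shared their highest and lowest libraries, and that of biglycan because it was the most abundant. The shared libraries are not particular to neighbours, since glypican-1 on chromosome 1 had the same ones. Whether the windows bear on the levels was not tested. RefSeq (GRCm38.p6) held such windows for 7 of the 10 members. The 250 bases before each start are given, 5′ to 3′, at chr13:49544193-49544442 (plus strand) for Aspn, chr13:49607765-49608014 (plus strand) for Ogn and chrX:73483351-73483600 (plus strand) for Bgn. Capitals mark matches, on either strand, to the TATA box (letters TATAAA), the box named CCAAT after its letters, the GC box (letters GGGCGG), the AP-1 site (letters TGANTCA) or the TEAD motif (letters GGAATG).
Aspn: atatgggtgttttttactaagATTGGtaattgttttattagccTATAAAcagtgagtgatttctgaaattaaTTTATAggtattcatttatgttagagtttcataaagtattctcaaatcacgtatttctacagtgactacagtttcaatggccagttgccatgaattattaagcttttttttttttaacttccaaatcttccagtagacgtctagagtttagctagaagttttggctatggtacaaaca
Ogn: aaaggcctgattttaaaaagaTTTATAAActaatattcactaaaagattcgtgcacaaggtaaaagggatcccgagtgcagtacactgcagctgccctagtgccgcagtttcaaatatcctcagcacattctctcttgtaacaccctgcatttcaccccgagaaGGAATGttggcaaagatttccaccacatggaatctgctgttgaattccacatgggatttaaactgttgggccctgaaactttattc
Bgn: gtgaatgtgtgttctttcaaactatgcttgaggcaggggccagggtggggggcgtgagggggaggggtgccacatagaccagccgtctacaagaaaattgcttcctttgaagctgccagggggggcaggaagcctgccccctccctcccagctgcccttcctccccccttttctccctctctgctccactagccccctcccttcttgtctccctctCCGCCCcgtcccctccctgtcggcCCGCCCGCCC
The window of asporin held 2 TATA box matches, 207 and 178 bases before the start (the second on the opposite strand), and 1 CCAAT box match on the opposite strand. That of osteoglycin held 2 overlapping TATA box matches 229 and 227 bases before the start and a TEAD motif at 86 bases. The letters TATAAA were found in 12.4% of all 32851 such windows and GGAATG in 12.6%. Biglycan had no TATA box match but 3 GC box matches within 34 bases of the start, which overlap in part, and GGGCGG was present in 32.7% of all windows. The window was 30.0% G and C for asporin, 42.0% for osteoglycin and 64.4% for biglycan. AP-1 matches were found in 0 of the 7 windows and in 6.75% of all windows. These are matches of letters and were not tested for binding.

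Other genes of the pathway were examined by lists written for these roles. Over all 6 libraries edgeR called 0 of the genes in these lists, against 0.426% of all genes. An unadjusted edgeR p under 0.05 was reached by 8, against 15.0% of all genes. These were 3 of 7 other small leucine-rich proteoglycans, 1 of 11 other matrix and surface proteoglycans and 0 of 12 linkage and donor genes. For chondroitin and dermatan sulfate enzymes it was 1 of 15, for heparan sulfate 0 of 15 and for keratan sulfate 1 of 5. Of hyaluronan and link protein genes it was 1 of 6, and of versican and aggrecan cleaving proteases 1 of 3. DESeq2 called 2 (Agrn and Hs3st3a1), both lower, against 5.28% of all genes. Hs3st3a1 had 10 to 12 reads in the Ctl MSC libraries and 0 or 1 in the MSC-TPr libraries. It did not pass the filter used with edgeR, so its call is uncertain. Genes other than the 3 most abundant of each list are named here after their values were seen. Without both libraries numbered 1, 5 of 7 tested other small leucine-rich proteoglycans were called, 1 higher (Podnl1) and 4 lower (Tsku, Podn, Chadl and Nyx). Podn, Chadl and Nyx passed the filter only through the Ctl MSC libraries, where they were high, and of the other 4 genes Podnl1 was called higher and Tsku lower, against 38.3% of all genes at the filter level in both groups. Tsku, which encodes tsukushi, a secreted regulator of signalling, fell by 0.98 on the log2 scale (edgeR adjusted p = 0.00172), with 27.4, 42.5 and 40.9 CPM for Ctl MSC libraries 1 to 3 and 29.1, 21.1 and 21.1 CPM for MSC-TPr libraries 1 to 3. Podnl1 rose by 2.61 (edgeR adjusted p = 0.000193), while Ctl MSC 1 stood at 26.5 CPM and MSC-TPr 1 at 3.76 CPM. Omd gave 0.75 (edgeR adjusted p = 0.0732). DESeq2 on the same 4 libraries called 2 genes of this list higher (Podnl1 and Omd) and 2 lower (Nyx and Tsku), against 35.2% of all genes.

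Of 12 other matrix and surface proteoglycans tested without both libraries numbered 1, 4 were called higher (Sdc1, Sdc4, Gpc6 and Cd44) and 4 lower (Agrn, Col18a1, Gpc2 and Prg4), against 20.6% and 19.4% of all genes. Gpc2 passed the filter only through the Ctl MSC libraries, and it shares 2376 exonic bases with Gm43720 on the same strand, so its call is uncertain. Syndecan-4 (Sdc4), a surface heparan sulfate proteoglycan of focal adhesions, rose by 1.54 (edgeR adjusted p = 0.000344), while Ctl MSC 1 stood at 137 CPM and MSC-TPr 1 at 47.1 CPM. Cd44, the hyaluronan receptor, some forms of which carry sugar chains, rose by 1.88 (edgeR adjusted p = 0.000205). Its highest library was however Ctl MSC 1 (536 CPM), and MSC-TPr 1 was lower (205 CPM). Over all 6 libraries the log2 fold change of Cd44 was 0.61 (edgeR adjusted p = 0.698). Syndecan-2 (Sdc2) gave 0.47 (edgeR adjusted p = 0.0205) without both libraries numbered 1, under the fold change required. Agrin (Agrn), a basement membrane heparan sulfate proteoglycan, had 53.4, 116 and 105 CPM for Ctl MSC libraries 1 to 3 and 43.7, 15.4 and 25.2 CPM for MSC-TPr libraries 1 to 3. It was lower in every MSC-TPr library, with a log2 fold change of −1.70 (edgeR adjusted p = 0.183) over all 6 libraries and −2.44 (edgeR adjusted p = 0.000904) over 4, and DESeq2 called it over all 6 libraries (adjusted p = 0.0137). Aggrecan (Acan) had at most 3 reads in any library.

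The enzymes that build the chains were mostly expressed. All 12 genes of the linkage region and sugar donors were tested, and without both libraries numbered 1, 3 were called higher (Ugdh, Xylt1 and Papss2) and 1 lower (B3gat3), where 40.0% of all genes were called. Ugdh, which makes UDP-glucuronic acid for all of the chains, rose by 1.01 (edgeR adjusted p = 0.00157), while Fam20b (−0.35) and Uxs1 (0.070) were not called. The highest library for Ugdh was however Ctl MSC 1 (296 CPM), and MSC-TPr 1 was lower (97.1 CPM). Over all 6 libraries the log2 fold change of Ugdh was −0.021 (edgeR adjusted p = 0.991). For chondroitin and dermatan sulfate, 6 of 15 enzymes were called higher and 1 lower, with a median log2 fold change of 0.615, against 20.6% and 19.4% of all genes called and a median of −0.002. The chain-initiating enzyme Csgalnact2 fell by 0.85 (edgeR adjusted p = 0.00262), the epimerase Dse rose by 0.65 (edgeR adjusted p = 0.0213), and the polymerizing factor Chpf gave −0.15 (edgeR adjusted p = 0.396). Over all 6 libraries the 15 enzymes had a median of 0.245, and DESeq2 called 0 of them. There Csgalnact2 gave −0.52 (edgeR adjusted p = 0.336), Dse 0.24 (edgeR adjusted p = 0.733) and Chpf −0.091 (edgeR adjusted p = 0.814).

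For heparan sulfate, 4 of 15 enzymes tested were called higher (Ext1, Hs6st2, Sulf1 and Sulf2) and 2 lower (Ndst1 and Glce) without both libraries numbered 1, with a median of −0.142, again against 20.6% and 19.4% of all genes. The chain polymerase Ext1 rose by 0.98 (edgeR adjusted p = 0.00223). The sulfotransferase Ndst1 fell by 0.62 (edgeR adjusted p = 0.0220) and the epimerase Glce by 0.73 (edgeR adjusted p = 0.00371). Over all 6 libraries Ext1 gave 0.45 (edgeR adjusted p = 0.614), Ndst1 −0.18 (edgeR adjusted p = 0.811) and Glce −0.30 (edgeR adjusted p = 0.717). Ext1 measured 106, 65.4 and 74.5 CPM for Ctl MSC libraries 1 to 3 and 59.4, 131 and 145 CPM for MSC-TPr libraries 1 to 3, and so was high in Ctl MSC 1 as in MSC-TPr 2 and 3. Of the keratan sulfate enzymes, 5 of 7 were tested and edgeR called 1, B4galt4, which was lower, against 40.0% of all genes. DESeq2 on the same 4 libraries called 2 higher (Chst1 and Chst2) and 0 lower, against 35.2% of all genes. B4galt1 gave −0.33, B3gnt2 0.11 and Chst2 0.79, with edgeR adjusted p from 0.0539 to 0.487, and B3gnt2 shares 2449 exonic bases with Gm28048 on the same strand, so that its reads are uncertain.

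**Figure D5:**
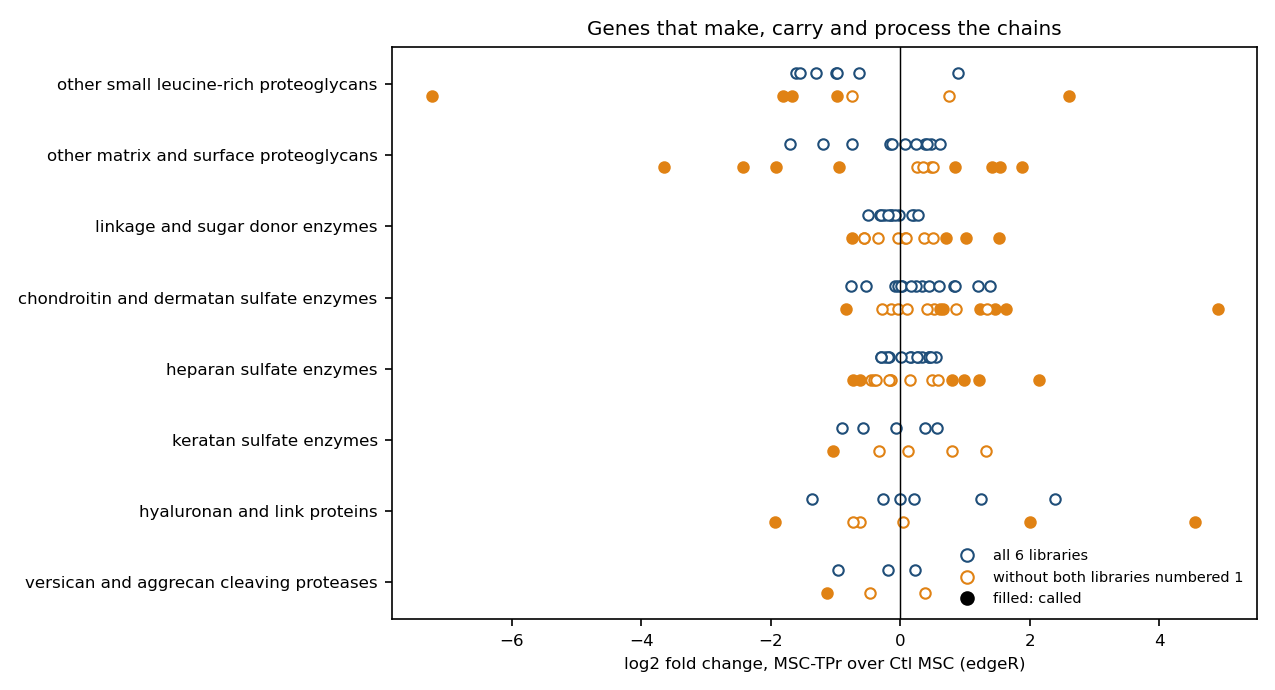
Log2 fold change of MSC-TPr over Ctl MSC for each tested gene of 8 lists (rows), with all 6 libraries (blue) and without both libraries numbered 1 (orange), where filled points are called. No point is filled over all 6 libraries, and filled points lie on both sides of 0 in 6 of the 8 lists over 4 libraries. Podn, Chadl, Nyx, Gpc2 and Tnfaip6 passed the filter for 4 libraries only through the group where they were high.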

How the data were processed

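Raw read counts per gene, as deposited by the authors, were used for 3 Ctl MSC and 3 MSC-TPr libraries. Per the labels and the submitters' processing notes, reads were handled with CASAVA 1.8.2, Trimmomatic 0.35 and TopHat2 2.1.0 on mm10 and counted with HTSeq; the strand setting is not given in the sources used here. Classes naming no gene were left out of library sizes: no feature took 6.86% to 10.9% of the listed reads, non-unique alignments 5.89% to 8.92% and ambiguous reads 0.939% to 1.09%.

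Counts were normalised by TMM, filtered with filterByExpr and tested with edgeR 4.0.16 (quasi-likelihood, group as the only term) in R 4.3.3, with Benjamini-Hochberg adjustment over all genes tested. Calls required an adjusted p below 0.05 with a log2 change of 0.5 or more either way. Standard errors were derived from the fold change and its F statistic. DESeq2 1.42.0, other normalisations and filters, libraries left out and a replicate block were alternatives. The scripts were tested on simulated data. Likeness used log2 CPM with 0.5 added to counts.

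All members were named. Of other lists, the 3 tested genes with the highest mean CPM were named, and any other gene was chosen after its values were seen. The members and lists were chosen with earlier results of these data known. Gene positions, exon lengths and overlaps came from GENCODE M21, and upstream sequences from RefSeq.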

Additional observations from a re-analysis of the deposited data

How the results depend on the processing

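With all 6 libraries, edgeR called 0 members and 51 of all genes, and the members stayed at 0 under every alternative that kept both libraries numbered 1 and when single libraries were left out (0 to 0). Without both libraries numbered 1, 4 members and 4854 of all genes were called, and DESeq2 on the same 4 libraries, an alternative chosen after seeing the data, called 5 members and 4565 genes. Both counts of members include Fmod, whose call is not used as a result. Counting, by edgeR and also chosen after seeing the data, only genes with a library at the filter level in both groups gave 3 members and 4464 genes. Over all genes, DESeq2 on 6 libraries called 683, a minimum of 10 counts in every library gave 31, and leaving out single libraries gave 0 to 108, with 108 without Ctl MSC 1, 1 without MSC-TPr 2, and 0 without Ctl MSC 2, Ctl MSC 3 or MSC-TPr 3. Same-numbered libraries deviated from their group means with correlations of −0.755, −0.574 and −0.59. The libraries numbered 1 stood apart within both labels and shift those means, so these values cannot show whether the numbers pair the libraries. A fit with the number as a block called 0 members and 0 of all genes by edgeR, with 776 genes at an unadjusted p under 0.05. Prelp turned to a log2 fold change of 0.073 with the block. Without both libraries numbered 1, the sign turned for Aspn (0.88), Prelp (1.28) and Gpc1 (0.51), and with DESeq2 on these libraries for Aspn (0.88), Prelp (1.27) and Gpc1 (0.52). With single libraries left out, log2 fold changes ranged from −1.65 to 0.036 for Dcn, −0.20 to 0.46 for Bgn, −0.29 to 3.48 for Fmod, −3.06 to 0.35 for Aspn, −0.79 to 1.06 for Prelp, −0.67 to 0.11 for Hspg2 and −0.37 to 0.25 for Gpc1. Dcn turned without Ctl MSC 1, Bgn and Fmod without MSC-TPr 3, and Aspn without Ctl MSC 1. Prelp turned without Ctl MSC 1, MSC-TPr 1 or MSC-TPr 2, Hspg2 without Ctl MSC 2, MSC-TPr 1 or MSC-TPr 2, and Gpc1 without Ctl MSC 1 or MSC-TPr 1. The cause was not tested. Ogn and Vcan kept their sign throughout. Depth limits Lum, at most 3 reads, and Fmod.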

Other observations

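Hyaluronan, the sugar chain to which versican binds, is made at the cell surface by synthases, trimmed by hyaluronidases and held to proteoglycans by link proteins. Of the 10 genes of this list found in the table, 6 were tested, and edgeR called 0 of them over all 6 libraries, with 1 at an unadjusted p under 0.05. Without both libraries numbered 1, 2 were called higher (Has2 and Tnfaip6) and 1 lower (Hyal1), where 40.0% of all genes were called. Tnfaip6 passed the filter only through MSC-TPr 2 and 3, where it was high, with 2 and 6 reads in Ctl MSC 2 and 3 against 102 and 95 reads in MSC-TPr 2 and 3. The hyaluronidase Hyal1 fell by 1.94 on the log2 scale (edgeR adjusted p = 0.00205), with 4.77, 9.93 and 9.98 CPM for Ctl MSC libraries 1 to 3 and 4.48, 2.01 and 3.11 CPM for MSC-TPr libraries 1 to 3. Its groups did not overlap, but Ctl MSC 1 and MSC-TPr 1 were close. Hyal1 shares 1920 exonic bases with Naa80 on the same strand, so its reads are uncertain. Hyal2 lay between 18.5 and 22.8 CPM in every library, and Hapln4, a link protein, gave −0.73 (edgeR adjusted p = 0.0930). The synthase Has2, named after its values were seen, rose by 2.01 (edgeR adjusted p = 0.00147), with 4.47, 2.30 and 2.81 CPM for Ctl MSC libraries 1 to 3 and 2.21, 8.99 and 11.5 CPM for MSC-TPr libraries 1 to 3.

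Of the ADAMTS proteases that cut versican and aggrecan, 3 of 7 were tested, and 1, Adamts4, was called without both libraries numbered 1, against 40.0% of all genes. Adamts4 had 9.00, 13.8 and 11.9 CPM for Ctl MSC libraries 1 to 3 and 6.09, 3.85 and 7.75 CPM for MSC-TPr libraries 1 to 3. It was lower in every MSC-TPr library, with a log2 fold change of −0.97 (edgeR adjusted p = 0.246) over all 6 libraries, and fell by 1.13 (edgeR adjusted p = 0.0315) over the 4 without both numbered 1. Adamts5 gave −0.47 (edgeR adjusted p = 0.273) and Adamts1 0.38 (edgeR adjusted p = 0.0737) over those 4 libraries.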
